A study of Mus musculus with 48 samples.

Results

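The genes described here are the components of the bone morphogenetic protein (BMP) and transforming growth factor β (TGF-beta) signaling pathway. Rows of the single-cell expression matrices were taken as members if they were named *Bmp*, *Gdf*, *Tgfb*, *Smad* or *Tgfbr* followed by a number, if they began with *Bmpr*, *Acvr* or *Inhb*, or if they were *Nog*, *Chrd*, *Fst*, *Grem1* or one of *Id1* to *Id4*. The rule found 52 of the 16510 genes in the table. By role these were 15 BMP and GDF ligands, 3 TGF-beta ligands, 2 activin subunits, 7 type I receptors, 4 type II receptors, 2 co-receptors, 8 Smads, 4 secreted antagonists, the 4 *Id* genes and 3 genes that share the name but have other functions (*Bmp1*, *Bmp2k* and *Tgfb1i1*). All samples were hypothalamus from mouse embryos at E18.5 on a mixed B6:129S1 background, and all embryos carried floxed *Eed* alleles. Control embryos were *Eed* fl/fl and had no Cre. *Eed-cKO* embryos were *Eed* fl/fl; *Sox1-Cre*/+, so that *Eed* was deleted wherever *Sox1-Cre* had been active, which is the central nervous system and its lineages and not vessels, meninges or microglia. There were 6 control embryos (2 female and 4 male, 22 libraries, 4 litters) and 9 *Eed-cKO* embryos (5 female and 4 male, 26 libraries, 6 litters), each hypothalamus having been cut into pieces that were processed as separate libraries.

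BMP and TGF-beta ligands are secreted dimers that bring together type I and type II serine/threonine kinase receptors. The activated receptors phosphorylate receptor Smads, which enter the nucleus with Smad4, whereas Smad6 and Smad7 inhibit the pathway and Noggin, Chordin, Follistatin and Gremlin bind ligands outside the cell. The *Id* genes, which encode inhibitors of bHLH transcription factors, are well known BMP targets, and in the developing brain the pathway is known for dorsal and midline patterning and for promoting astrocyte fate. EED is a core subunit of Polycomb repressive complex 2 (PRC2), which places the repressive mark H3K27me3 and is found mainly at CpG-rich promoters.

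Because PRC2 is associated with CpG-rich starts, the promoters of 5 members are shown. These were the members passing the test in neural cells below that had 1 RefSeq promoter entry and no annotated exon in the window. They include ligands, a receptor, a Smad and an *Id* gene and both directions of change. Each is the 250 bases before the RefSeq start (GRCm38.p6), written on the gene's own strand with CG dinucleotides in capitals. They are *Bmp4* at chr14:46390670-46390919 (minus strand), *Gdf10* at chr14:33923337-33923586 (plus), *Acvr2a* at chr2:48813859-48814108 (plus), *Smad3* at chr9:63757995-63758244 (minus) and *Id4* at chr13:48260866-48261115 (plus).
Bmp4: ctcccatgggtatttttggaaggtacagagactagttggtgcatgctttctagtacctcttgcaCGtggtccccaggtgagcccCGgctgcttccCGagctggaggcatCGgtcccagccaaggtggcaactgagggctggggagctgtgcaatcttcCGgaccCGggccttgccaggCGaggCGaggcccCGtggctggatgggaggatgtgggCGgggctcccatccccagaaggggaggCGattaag
Gdf10: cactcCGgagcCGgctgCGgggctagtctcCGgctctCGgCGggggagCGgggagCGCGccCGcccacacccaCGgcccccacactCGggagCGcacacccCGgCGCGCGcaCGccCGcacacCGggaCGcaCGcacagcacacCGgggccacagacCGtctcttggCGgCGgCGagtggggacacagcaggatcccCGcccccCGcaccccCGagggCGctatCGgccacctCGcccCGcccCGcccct
Acvr2a: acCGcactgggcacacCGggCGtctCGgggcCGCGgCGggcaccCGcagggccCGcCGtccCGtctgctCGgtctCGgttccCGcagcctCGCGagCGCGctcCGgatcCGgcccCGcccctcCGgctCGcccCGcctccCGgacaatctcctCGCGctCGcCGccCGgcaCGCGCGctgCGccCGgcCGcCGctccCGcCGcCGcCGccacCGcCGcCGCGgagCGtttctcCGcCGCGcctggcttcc
Smad3: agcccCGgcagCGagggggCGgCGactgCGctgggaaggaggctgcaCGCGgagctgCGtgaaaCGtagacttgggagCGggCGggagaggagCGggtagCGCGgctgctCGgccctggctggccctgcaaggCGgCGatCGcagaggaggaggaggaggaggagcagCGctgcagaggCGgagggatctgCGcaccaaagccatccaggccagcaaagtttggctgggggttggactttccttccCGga
Id4: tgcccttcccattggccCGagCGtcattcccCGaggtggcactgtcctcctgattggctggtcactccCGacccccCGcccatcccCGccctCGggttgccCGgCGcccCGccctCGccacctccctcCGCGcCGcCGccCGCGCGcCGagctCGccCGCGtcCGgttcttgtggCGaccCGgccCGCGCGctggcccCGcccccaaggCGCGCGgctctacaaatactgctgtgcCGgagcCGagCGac
The *Acvr2a* window held 49 CG dinucleotides at 82.0% GC, *Gdf10* held 35 at 78.8%, *Id4* held 35 at 75.6%, *Smad3* held 22 at 69.2% and *Bmp4* held 11 at 63.2%. The RefSeq promoter set had an entry for 35 of the 52 members (42 entries), with a median of 22.0 CG dinucleotides and 65.8% GC against 6.00 and 52.4% over all 32851 promoters of that length. The sequence GGCGCC, a palindrome known as a binding motif of the BMP-activated Smads and itself containing a CG, was found in 10 of the 42 entries and in 9.59% of all promoters, and 1 match lies in the *Id4* window. Among the 18 members that passed the test in neural cells below, 9 had an entry, and *Nog*, *Tgfb3*, *Fst*, *Bmp1*, *Smad7*, *Id1*, *Bmp7*, *Tgfbr3* and *Tgfb1i1* had none. No data on chromatin or DNA methylation were analysed here, so these are descriptions of sequence and not of binding.

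The matrices held 14121 cells. Control embryos had 1042 to 1664 cells and 5363119 to 7487417 UMIs (unique molecular identifiers), and *Eed-cKO* embryos had 217 to 1111 cells and 658175 to 6299181 UMIs, with the lowest depth in *Eed-cKO* replicate 9. Cells were clustered and clusters were named from markers. Removing endothelial-like, vascular leptomeningeal-like, pericyte-like and microglia-like clusters left 13293 neural cells (6839 control and 6454 *Eed-cKO*), referred to as All-Hypo. No litter held both genotypes, so genotype and litter cannot be told apart, and 96 of 1128 library pairs shared at least 1 cell barcode (203 cells). *Eed* itself was at 28.7 to 33.0 plain CPM (the gene's UMIs scaled to an equal total in every embryo) in control and 19.5 to 27.9 in *Eed-cKO* All-Hypo, but 3′ tags lie outside the deleted exons, so its level does not check the labels. CPM not named plain were also TMM-normalised.

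UMIs of all cells were summed per embryo, and the embryo was the replicate throughout. In All-Hypo, 33 of the 52 members had enough UMIs to be tested, of which 16 were higher in *Eed-cKO* and 2 were lower at an adjusted p of 0.05 (edgeR quasi-likelihood test). Over all 12558 genes tested, 27.7% were called, 15.3% higher and 12.4% lower. *Bmp4*, *Tgfb3* and *Tgfbr3* reached the expression filter only through their level in *Eed-cKO*, and *Acvr1c* missed it only through its lower level there. The count of members tested was therefore not independent of their change. Without overlap between embryos, 5 members were above and 2 below, where 4.02% and 2.66% of all genes were. The median log2 fold change of the 33 members was 0.31, against 0.01 over all genes. By role, 3 of the 4 *Id* genes, both TGF-beta ligands tested and 3 of 4 BMP and GDF ligands tested rose, and the type II receptor *Acvr2a* and the antagonist *Nog* fell. In sums of this kind, a change in the number of cells of a type and a change in RNA per cell cannot be told apart.

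**Figure D1:**
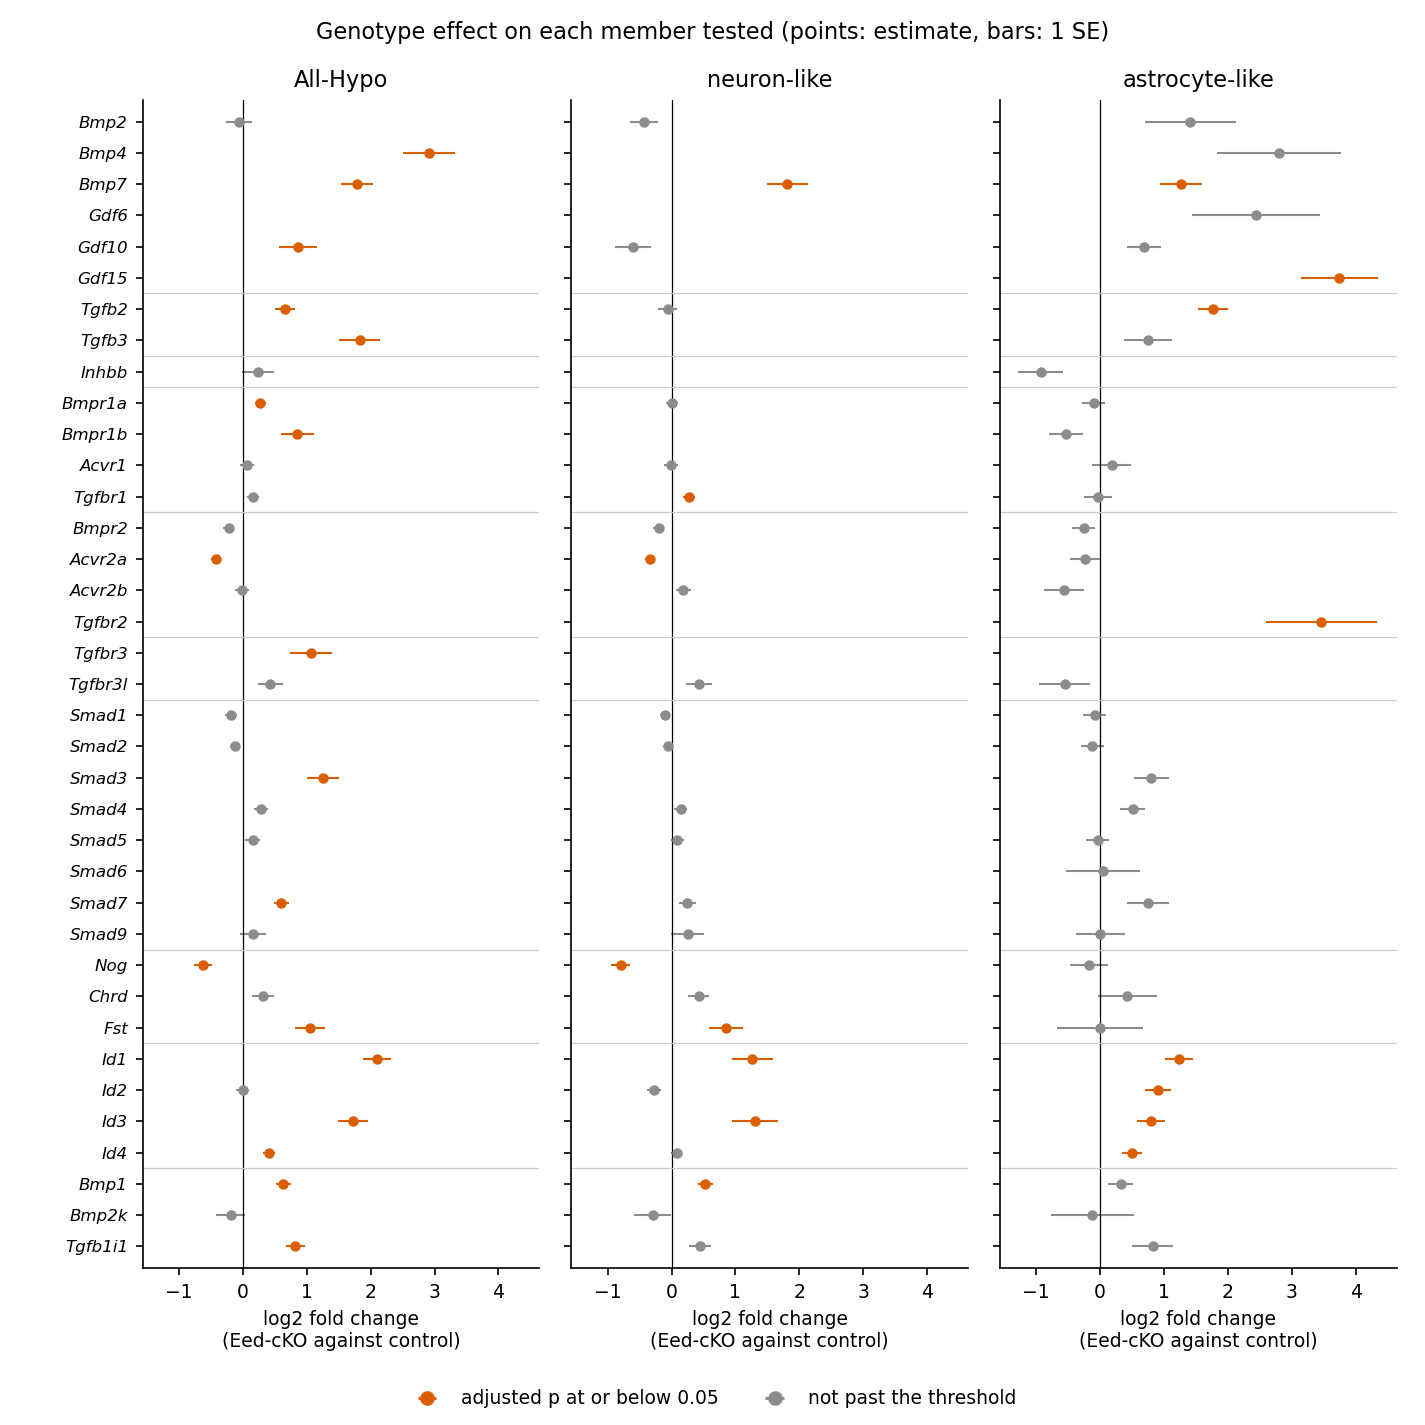
Log2 fold change (*Eed-cKO* over control) of each member tested in All-Hypo, neuron-like and astrocyte-like cells (panels), with bars of 1 SE, colored where the adjusted p was at or below 0.05 and gray otherwise. *Bmp4* (2.91) and *Id1* (2.10) lie farthest to the right among the members of All-Hypo, and *Nog* (-0.62) and *Acvr2a* (-0.43) are the 2 that were called lower.

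Among the BMP and GDF ligands, *Bmp4* (chr14:46383520-46390669), a ligand of dorsal and ventral diencephalic midline tissue, ranged from 0.139 to 1.28 CPM in control (median 0.586) and from 1.42 to 7.79 in *Eed-cKO* (median 4.95). Every *Eed-cKO* embryo was above every control embryo, with *Eed-cKO* replicates 7, 3 and 5 highest and replicate 4 lowest. The log2 fold change was 2.91 ± 0.41 (SE; adjusted p = 1.91e-05). The control level rested on 24 UMIs in 6 embryos. *Bmp7* (chr2:172868012-172940321), a ligand made by choroid plexus, meninges and astroglia, ranged from 3.44 to 5.52 CPM in control (median 4.56) and from 7.38 to 33.6 in *Eed-cKO* (median 14.2). The genotypes did not overlap, and *Eed-cKO* replicate 7 stood apart from the next embryo at 22.1. The difference was 1.79 ± 0.25 (adjusted p = 2.02e-05), and 1.60 without that embryo, in which choroid plexus-like cells made up 7.03% of neural cells. The choroid plexus-like cluster had 61 cells, all from *Eed-cKO* embryos and 36 of them from replicate 7. Its leading genes were *Ttr* and then the pituitary markers *Cga* and *Tshb*. *Gdf10* (chr14:33923587-33937983), a TGF-beta superfamily ligand of astroglia, ranged from 4.19 to 22.1 CPM (median 10.2) in control and from 6.92 to 37.1 (median 20.1) in *Eed-cKO*, so the genotypes overlapped widely. It was higher by 0.86 ± 0.30 (adjusted p = 0.0337), but this call was lost in 13 of 39 alternative analyses, including those leaving out control replicate 2, 3, 4 or 6 or *Eed-cKO* replicate 1 or 4 (adjusted p from 0.0584 to 0.0778).

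Both TGF-beta ligands with enough counts rose. *Tgfb3* (chr12:86056745-86079041) ranged from 1.35 to 3.31 CPM in control (median 1.83) and from 1.58 to 15.2 in *Eed-cKO* (median 6.48). Only *Eed-cKO* replicate 9, the lowest, was within the control range, and replicate 7 was highest. The log2 fold change was 1.83 ± 0.32 (adjusted p = 2.42e-04), and 1.65 without replicate 7. *Tgfb2* (chr1:186622792-186705989), the TGF-beta ligand of radial glia and astroglia, ranged from 23.9 to 39.3 CPM in control (median 30.6) and from 24.7 to 74.2 in *Eed-cKO* (median 50.8). *Eed-cKO* replicate 9 was highest, and replicate 6 and 1 further embryo were within the control range. It rose by 0.65 ± 0.16 (adjusted p = 0.00385). *Bmp1* (chr14:70474558-70520234), which shares the name but encodes an extracellular metalloprotease that cleaves procollagens and Chordin, rose by 0.63 ± 0.12 (adjusted p = 4.63e-04), from a median of 27.2 CPM to 44.1. *Tgfb1i1* (chr7:128246812-128255699), a focal adhesion adaptor induced by TGF-beta, ranged from 5.06 to 10.3 CPM (median 8.12) in control and from 9.43 to 15.9 (median 14.8) in *Eed-cKO*, a rise of 0.82 ± 0.15 (adjusted p = 3.92e-04). The activin subunit *Inhbb* did not pass the test (0.24).

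Of the receptors, *Bmpr1b* (chr3:141837136-142169425), a type I BMP receptor, ranged from 2.08 to 6.90 CPM in control (median 3.80) and from 3.65 to 12.6 in *Eed-cKO* (median 7.69), a rise of 0.85 ± 0.26 (adjusted p = 0.0177) that was lost in 4 of 39 alternatives, including without the litter of control replicates 4 and 6 (0.140) or of *Eed-cKO* replicates 1 and 4 (0.0580). *Bmpr1a*, the broadly expressed type I BMP receptor, went from a median of 50.8 to 63.0 CPM, a difference of 0.27 ± 0.09 (adjusted p = 0.0261) whose call was lost in 10 of 39 alternatives, including without *Eed-cKO* replicate 1 or 3 or control replicate 2 or 5 (adjusted p from 0.0512 to 0.0542). With sums per litter, the calls of *Bmpr1b* (adjusted p = 0.0515) and *Bmpr1a* (0.0532) were both lost. Limma-voom with TREAT also called neither (adjusted p = 0.0615 and 0.499). The co-receptor *Tgfbr3* (chr5:107106570-107289629), which presents TGF-beta2 to its receptors, ranged from 0.584 to 3.20 CPM in control and from 1.58 to 9.02 in *Eed-cKO*, with replicate 7 highest, and rose by 1.07 ± 0.33 (adjusted p = 0.0197, or up to 0.0622 without a control litter). *Acvr2a* (chr2:48814109-48903269), the type II receptor for activins and some BMPs, ranged from 130.5 to 179.5 CPM in control (median 156) and from 102 to 129.6 in *Eed-cKO* (median 114). Every *Eed-cKO* embryo was below every control embryo. It fell by 0.43 ± 0.08 on the log2 scale (adjusted p = 2.20e-04). *Acvr1*, *Tgfbr1*, *Acvr2b* and *Bmpr2* did not pass the test (0.06, 0.16, -0.01 and -0.22).

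*Smad3* (chr9:63646767-63757994), a receptor Smad of the TGF-beta and activin branch, ranged from 2.36 to 8.08 CPM in control (median 4.81) and from 8.51 to 18.9 in *Eed-cKO* (median 11.05), and the genotypes did not overlap. It rose by 1.26 ± 0.25 (adjusted p = 7.31e-04). *Smad7*, an inhibitory Smad that is also a target of the pathway, ranged from 8.90 to 13.6 CPM in control (median 11.8) and from 15.8 to 20.8 in *Eed-cKO* (median 17.1), again without overlap, and rose by 0.60 ± 0.11 (adjusted p = 4.18e-04). The other Smads tested did not pass, with log2 fold changes from -0.19 for *Smad1* to 0.28 for the common partner *Smad4*. Among the antagonists, *Nog* (chr11:89300638-89302332), which blocks BMP2, BMP4 and BMP7, ranged from 16.6 to 20.6 CPM in control (median 19.0) and from 6.43 to 15.6 in *Eed-cKO* (median 12.4). All *Eed-cKO* embryos were below all control embryos, and replicate 6 was lowest. The difference was -0.62 ± 0.14 (adjusted p = 0.0018). *Fst* (chr13:114452290-114458951), which binds activins, ranged from 1.74 to 4.81 CPM in control (median 2.57) and from 3.85 to 7.62 in *Eed-cKO* (median 6.01), a rise of 1.05 ± 0.23 (adjusted p = 0.00183). *Chrd* did not pass (0.31, adjusted p = 0.181).

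The *Id* genes differed among themselves. *Id1* (chr2:152736251-152737410) ranged from 5.83 to 11.7 CPM in control (median 9.56) and from 16.2 to 59.4 in *Eed-cKO* (median 43.1). The genotypes did not overlap, with *Eed-cKO* replicate 2 lowest and replicate 1 highest, and the rise was 2.10 ± 0.22 (adjusted p = 3.94e-07). *Id3* (chr4:136143497-136145755) ranged from 13.8 to 38.8 CPM (median 23.98) in control and from 35.2 to 115 (median 78.4) in *Eed-cKO*. Only control replicate 1, the highest control embryo, exceeded the lowest *Eed-cKO* embryo, replicate 2, and the rise was 1.72 ± 0.24 (adjusted p = 1.50e-05). *Id4* (chr13:48261228-48266026) had medians of 184 and 237 CPM and rose by 0.40 ± 0.09 (adjusted p = 0.0024). *Id2* (chr12:25093799-25097140) ranged from 102 to 143 CPM in control and from 91.4 to 138 in *Eed-cKO*, a difference of -0.003 ± 0.099 (adjusted p = 0.989).

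**Figure D2:**
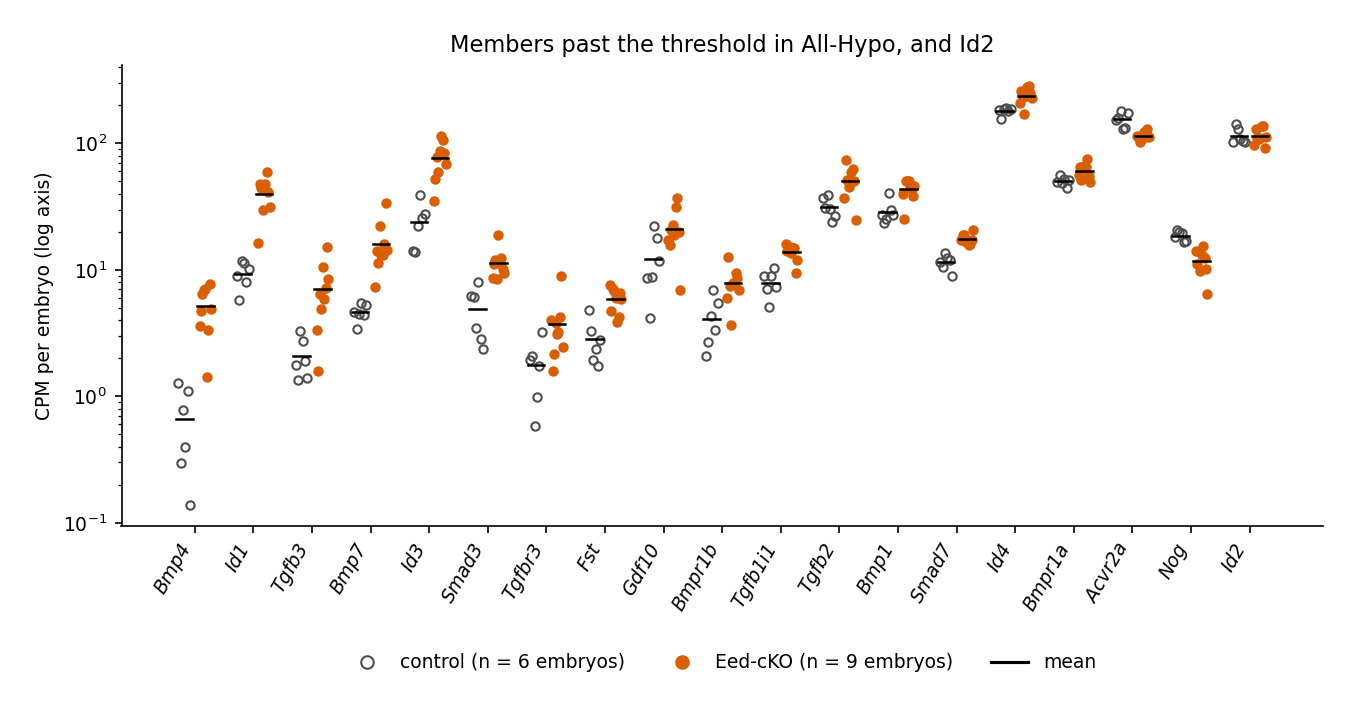
TMM-normalised CPM per embryo (log axis) of the 18 members called in All-Hypo and *Id2*. Each point is 1 embryo (6 control, 9 *Eed-cKO*) and the lines mark the mean. Every *Eed-cKO* embryo exceeds every control embryo for *Bmp4* and *Id1*, and every *Eed-cKO* embryo is below every control embryo for *Nog*.

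Strand was not stated for the counting, so the reads of members that overlap exons of genes on the opposite strand, among them *Bmp4*, *Tgfb2*, *Tgfb3*, *Acvr2a*, *Fst* and *Id4*, cannot be told from those of the overlapping gene.

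The 19 members that were not tested fell short of the expression filter. *Gdf15*, a stress-responsive ligand, was seen with 14 UMIs in control and with 173 in *Eed-cKO*, with embryos at 0 to 0.789 and 0.868 to 9.43 CPM, which did not overlap. *Bmp6* was not detected in control and had 23 UMIs in *Eed-cKO*, at least 8.72-fold higher against a floor of 3 UMIs over the control embryos. *Gdf6* had 3 and 27, *Bmp5* 1 and 14, the inhibitory *Smad6* 25 and 66, the type II TGF-beta receptor *Tgfbr2* 22 and 83, *Acvr1c* 147 and 45, and *Bmp3* 50 and 20. *Acvr1c*, a type I receptor for activin-type ligands, ranged from 2.24 to 6.09 CPM in control and from 0.714 to 3.16 in *Eed-cKO*. When only a minimum total of 15 UMIs was asked, 50 members were tested, 23 higher and 5 lower, with *Bmp5*, *Bmp6*, *Gdf5*, *Gdf6*, *Gdf15*, *Smad6* and *Tgfbr2* added to the higher ones and *Acvr1c*, *Bmp3* and *Bmpr2* to the lower ones. *Bmp5*, *Bmp6*, *Gdf6* and *Gdf15* reached that total only through *Eed-cKO*, so their addition was not independent of their change. Of all 15773 genes tested that way, 25.9% were called, 14.3% higher and 11.6% lower.

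The summed UMIs came from different cells in the 2 genotypes. Of the *Bmp4* UMIs in *Eed-cKO* All-Hypo, 32.9% were in tanycyte-like, 20.6% in neuron-like, 15.9% in choroid plexus-like and 10.0% in astrocyte-like cells, whereas 83.3% of the control UMIs were in neuron-like cells. Of *Tgfb2* UMIs, 73.2% in control and 39.4% in *Eed-cKO* were neuron-like, and 41.7% in *Eed-cKO* were astrocyte-like. Astrocyte-like cells held 64.9% of the *Id1* UMIs in control and 64.4% in *Eed-cKO*, and 71.5% and 64.7% of the *Id3* UMIs. Astrocyte-like cells were 3.46 to 7.24% of neural cells in control embryos and 7.03 to 13.5% in *Eed-cKO*, and tanycyte-like cells were 0.125 to 1.36% and 1.17 to 3.21%. Choroid plexus-like cells were kept in All-Hypo, and their list reached 24970 plain CPM in *Eed-cKO* replicate 7. Markers of some of the cells left out also moved. All 8 vascular leptomeningeal markers had a higher mean in *Eed-cKO* All-Hypo. Their summed level was 68.6 to 465 plain CPM in *Eed-cKO* embryos against 5.46 to 35 in control. Medians in control and *Eed-cKO* were 15.4 and 66.8 for the pericyte list, 10.3 and 11.6 for the endothelial list, and 2.93 and 3.14 for the microglia list. Marker RNA from cells left out and marker RNA made by neural cells cannot be told apart in these sums. The part of either in the changes of *Bmp4*, *Bmp7*, *Tgfb3* and *Tgfbr3* was not tested.

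Within neuron-like cells (4588 control and 4235 *Eed-cKO*), 27 members were tested, 6 of them higher and 2 lower, where 15.5% of all 12053 genes were called, 8.06% higher and 7.41% lower. Embryos did not overlap for 1 member above and 1 below, where 2.00% and 1.43% of all genes did so. *Fst*, *Id1*, *Id3*, *Bmp7* and *Smad9* reached the filter only through *Eed-cKO*, and *Acvr1c* missed it only through its lower level in *Eed-cKO*. One of the neuron-like clusters had 1458 *Eed-cKO* and 13 control cells and another had 343 control and 26 *Eed-cKO* cells, and without both of them 6 members were higher and 2 lower, with *Fst* no longer called (adjusted p = 0.0554). *Bmp7* ranged from 0.752 to 1.98 CPM in control (median 1.55) and from 2.70 to 10.9 in *Eed-cKO* (median 4.36), without overlap, and rose by 1.82 ± 0.32 (adjusted p = 2.49e-04). *Id1* ranged from 0.564 to 5.19 and from 3.03 to 8.72 CPM, a rise of 1.26 ± 0.32 (adjusted p = 0.00839), and *Id3* from 0.376 to 3.21 and from 0 to 9.93 CPM, a rise of 1.31 ± 0.36 (adjusted p = 0.0129). *Bmp1* rose by 0.53 ± 0.12 (adjusted p = 0.00228), *Fst* by 0.85 ± 0.27 (adjusted p = 0.0296, lost in 12 of 40 alternatives) and *Tgfbr1*, the type I receptor of TGF-beta, by 0.28 ± 0.09 (adjusted p = 0.0472, lost in 29 of 40). Both *Id* calls were lost without the litter of control replicates 4 and 6 (adjusted p = 0.0511 for *Id1* and 0.0641 for *Id3*), and that of *Fst* without control replicate 1, 4 or 5 or *Eed-cKO* replicate 8 (adjusted p from 0.0569 to 0.0689). *Nog* ranged from 15.9 to 21.3 CPM in control (median 18.45) and from 6.11 to 14.1 in *Eed-cKO* (median 9.23), again without overlap, and fell by 0.80 on the log2 scale (SE 0.15, adjusted p = 3.72e-04). *Acvr2a* fell by 0.34 (SE 0.08, adjusted p = 0.00442), from a median of 161 to 125 CPM. With a total of 15 UMIs as the only filter, where 14.4% of all 14950 genes were called (7.53% higher and 6.86% lower), 7 of 43 members were higher and 3 lower, among them *Bmpr1b* (1.94 ± 0.42), *Inhbb* (1.45 ± 0.42) and *Acvr1c* (-1.80 ± 0.33). Neuron-like *Id2* and *Id4* did not pass (-0.28 and 0.08), nor did *Tgfb2* (-0.06) or *Bmpr1a* (0.01). The vascular leptomeningeal marker list was at 3.74 to 10.5 plain CPM in control and at up to 41.0 in *Eed-cKO* neuron-like cells, with *Lum* at 0 in control, and the astrocyte list was at 146 to 179 and 189 to 240. Their part in these values was not tested.

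In astrocyte-like cells (378 control and 645 *Eed-cKO*), 36 members were tested, 8 were higher and none was lower, where 11.3% of all 12459 genes were called, 6.71% higher and 4.62% lower. At unadjusted p under 0.05 there were 16, and DESeq2 called 7 higher and 0 lower, but the share over all genes was not computed for either. Embryos did not overlap for 1 member above, *Gdf15*, where 1.68% of all genes did so. All 4 *Id* genes rose. *Id1* ranged from 67.7 to 175 CPM in control (median 141) and from 121 to 477 in *Eed-cKO* (median 321), a rise of 1.24 ± 0.22 (adjusted p = 7.63e-05). *Id2* ranged from 115 to 246 (median 167) and from 208 to 544 CPM (median 269), a rise of 0.91 ± 0.21 (adjusted p = 0.00184). *Id3* (0.80 ± 0.22) and *Id4* (0.49 ± 0.16) also passed, and their calls were lost in 6 and 8 of 29 alternatives, for *Id3* without control replicate 6 (adjusted p = 0.0520) and for *Id4* without *Eed-cKO* replicate 1 or 4 or control replicate 1 (adjusted p from 0.0655 to 0.0930). *Tgfb2* ranged from 46.1 to 99.0 CPM in control (median 59.4) and from 87.9 to 372 in *Eed-cKO* (median 238), with only the lowest *Eed-cKO* embryo within the control range, and rose by 1.76 ± 0.24 (adjusted p = 6.64e-07). *Gdf15* ranged from 0 to 5.42 CPM in control and from 5.51 to 83.0 in *Eed-cKO*, without overlap, and rose by 3.75 ± 0.61 (adjusted p = 2.08e-05). *Bmp7* rose by 1.27 ± 0.33 (adjusted p = 0.00686), and *Tgfbr2*, with 1 UMI in control and 29 in *Eed-cKO*, was called higher (adjusted p = 0.0056). *Gdf15* (4 and 106 UMIs) and *Tgfbr2* reached the minimum of 15 UMIs only through *Eed-cKO*, and the calls of *Bmp7* and *Tgfbr2* were lost without the litter of control replicates 1 and 5 (adjusted p = 0.0533 and 0.0576). *Smad3* (0.80, adjusted p = 0.0519) and *Bmp4* (2.80, adjusted p = 0.0551, 1 and 17 UMIs) narrowly missed the threshold, and *Nog* and *Acvr2a* did not pass (-0.18 and -0.23). The vascular leptomeningeal list was at 17.1 to 93.1 plain CPM in control and 384 to 869 in *Eed-cKO* astrocyte-like cells. *Slc6a13*, a marker of that list, was at 0 in control. Among other lists in these cells, choroid plexus markers were at 39.9 to 140 in control and 163 to 302 in *Eed-cKO*, and pituitary markers at 0 to 47.0 and 66.2 to 131. Medians in control and *Eed-cKO* were 518 and 1140 for the tanycyte list, 170 and 428 for the pericyte list, and 16636 and 11563 for the astrocyte list. Whether these markers came from such cells was not determined, and what they add to the values of the members was not tested.

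The genotype effect was compared between astrocyte-like and neuron-like cells of the same embryos. Of the 33 members tested for this difference 5 were called, where 6.16% of all 12250 genes were, 3.51% more positive and 2.65% more negative in astrocyte-like cells. *Tgfb2* was 1.81 ± 0.27 more positive in astrocyte-like cells (adjusted p = 1.64e-05), *Gdf10* 1.45 ± 0.35 (adjusted p = 0.00829) and *Id2* 1.16 ± 0.24 (adjusted p = 0.00172). *Bmpr1b* and *Inhbb* went the other way, by -2.38 ± 0.45 (adjusted p = 6.33e-04) and -2.51 ± 0.59 (adjusted p = 0.00613). Their neuron-like UMIs in control and *Eed-cKO* were few, 16 and 52 for *Bmpr1b* and 19 and 43 for *Inhbb*. Neither gene had passed the expression filter used for neuron-like cells alone. *Bmpr1b* was at 33.0 to 94.4 CPM in control and 13.8 to 77.0 in *Eed-cKO* astrocyte-like cells, and at 0.376 to 0.927 and 0.499 to 4.36 in neuron-like cells. The difference did not pass the test for *Id1* (-0.07 ± 0.27), *Id3* (-0.50 ± 0.38) or *Bmp7* (-0.45 ± 0.51).

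**Figure D3:**
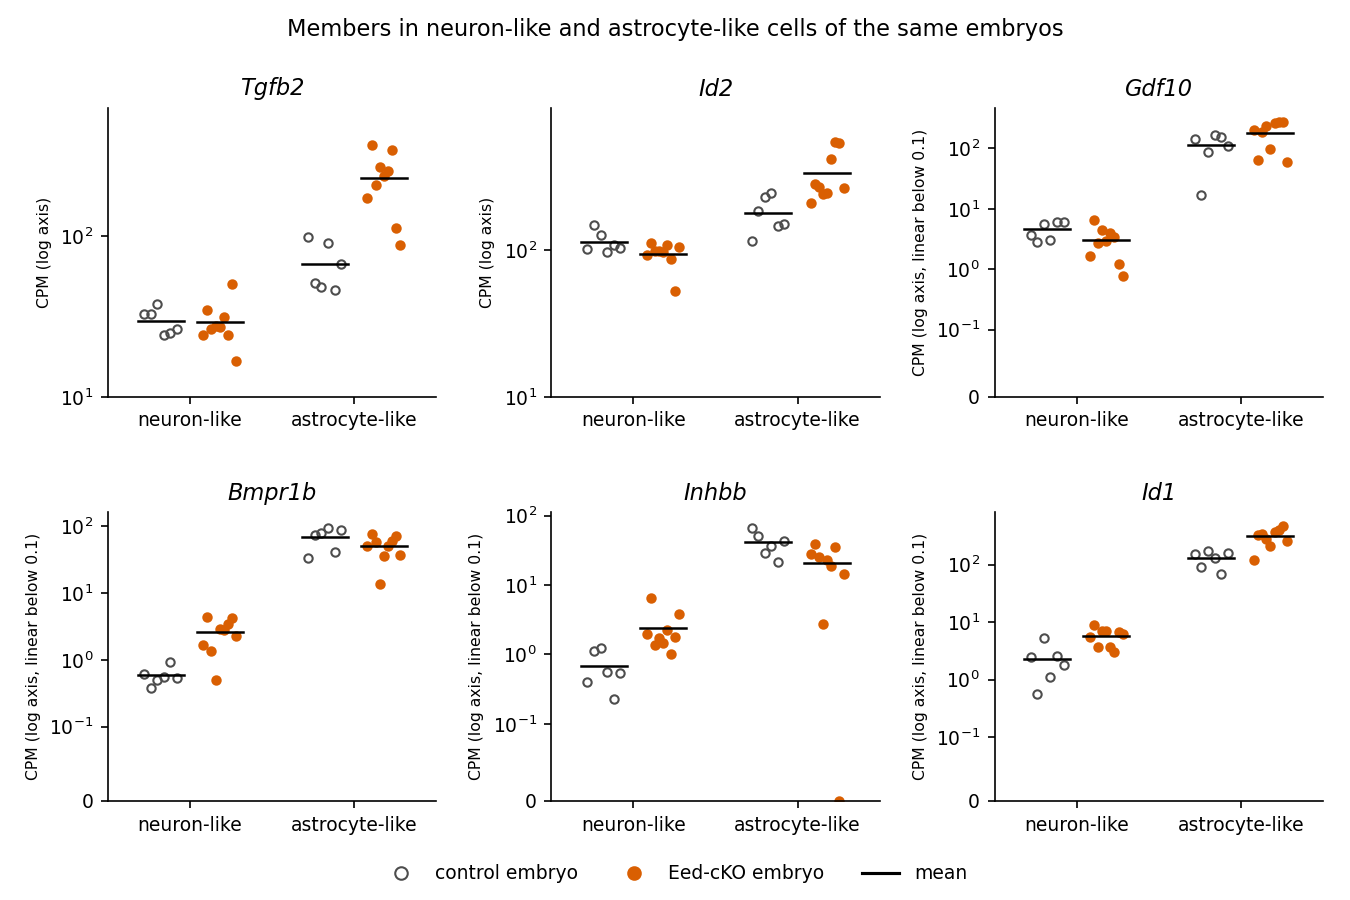
CPM per embryo (log axis, linear below 0.1 in the panels that reach 0) of *Tgfb2*, *Id2*, *Gdf10*, *Bmpr1b*, *Inhbb* and *Id1* in neuron-like and astrocyte-like cells of control and *Eed-cKO* embryos, with 1 point per embryo and lines at the means. *Tgfb2* spans 46.1 to 99.0 in control and 87.9 to 372 in *Eed-cKO* astrocyte-like cells, while its neuron-like values did not pass the test.

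Smaller cell kinds were tested where at least 3 embryos of each genotype had at least 10 cells. In cycling progenitor-like cells (6 embryos of each genotype), 3 of 29 members were higher, where 4.25% of all genes were called, 2.95% higher. Leading genes of this cluster also included the oligodendrocyte precursor markers *Gpr17*, *Sox10* and *Pdgfra*, and no cluster was named for such precursors. In All-Hypo the precursor list had medians of 110 plain CPM in control and 104 in *Eed-cKO*, and the cycling list 39.5 and 98.1. The 6 precursor markers did not move alike. *Gpr17*, which was not tested, went from a median of 5.45 CPM (1.36 to 9.46) to 0.174 (0 to 1.58). *Pdgfra* was called lower (-0.79 ± 0.28, adjusted p = 0.0377). *Sox10*, *Olig1*, *Olig2* and *Cspg4* were not called, and 1 of the 6 had a higher mean in *Eed-cKO*. These values cover all neural cells and not the cluster alone. Whether the mix of cells in this cluster differed by genotype was not tested. *Id4* ranged from 97.5 to 283 CPM in control and from 271 to 496 in *Eed-cKO*, a rise of 1.17 ± 0.24 (adjusted p = 0.00158). *Id1* rose by 1.55 ± 0.37 (adjusted p = 0.00752) and *Gdf10*, with 2 and 36 UMIs, was called higher (adjusted p = 0.011) after reaching the minimum of 15 UMIs only through *Eed-cKO*, but DESeq2 called only *Id4*, and the *Id1* call was also lost without *Eed-cKO* replicate 1 (adjusted p = 0.0520). Without control replicate 4 there were 5 members higher. In endothelial-like cells, outside the *Sox1-Cre* lineage, edgeR called none of 23 members (0.306% of all genes), and 2 had an unadjusted p under 0.05, *Id1* (-0.98) and *Tgfbr1* (1.83). The share of all genes at that unadjusted p was not computed, and no other tool was run for these cells. In vascular leptomeningeal-like cells, also outside the lineage (3 control and 8 *Eed-cKO* embryos), 2 of 33 members were lower, where 1.88% of all genes were called, 1.17% lower. *Bmp4* ranged from 198 to 345 CPM in control and from 12.0 to 167 in *Eed-cKO*, without overlap (1.83% of all genes were below in this way), a difference of -2.02 ± 0.37 (adjusted p = 0.00252), opposite in sign to All-Hypo, and *Gdf10* differed by -2.75 ± 0.55 (adjusted p = 0.00447). Both calls were lost without control replicate 6 (adjusted p = 0.0623 and 0.456), there were 4 lower without control replicate 1, and the difference of the *Bmp4* effect from that in neuron-like cells, where 1.07% of all genes were called, did not pass (-2.74 ± 0.74, adjusted p = 0.05998).

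Levels within each gene differed between kinds, and no test was made between kinds. In plain CPM, without TMM, *Bmp4* was at 243 ± 61.9 (SD) in control and 70.3 ± 58.5 in *Eed-cKO* vascular leptomeningeal-like cells. In tanycyte-like cells it was at 122 ± 48.9 in 6 *Eed-cKO* embryos (50 UMIs), against 1 UMI in 2 control embryos. *Acvrl1*, the endothelial type I receptor, was at 349 ± 151 in control and 378 ± 41.2 in *Eed-cKO* endothelial-like cells. Among named kinds, *Acvr2a* had its highest level in neuron-like cells (156 in control and 124 in *Eed-cKO*), with unnamed cells at 163 and 141, and *Gdf10* in the ependymal-like cells of 2 control embryos (372 ± 38.4). *Bmpr1b* was highest in astrocyte-like cells (66.3 in control and 50.4 in *Eed-cKO*). *Tgfb2* was highest in tanycyte-like cells in control (181 in 2 embryos, against 65.9 in astrocyte-like cells) and in astrocyte-like cells in *Eed-cKO* (231, against 145 in tanycyte-like cells).

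**Figure D4:**
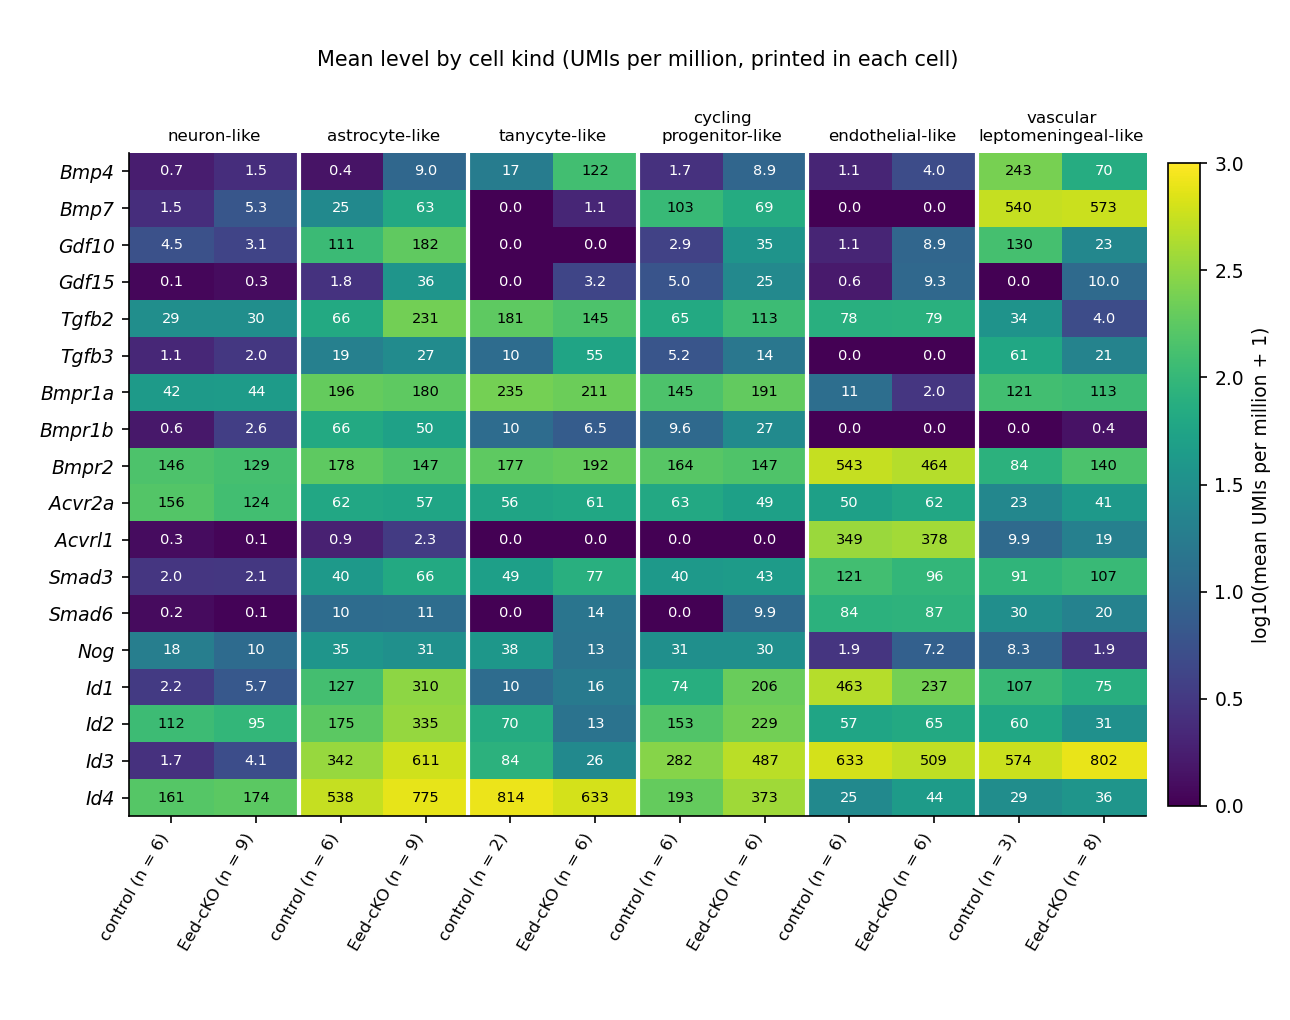
Mean plain CPM of members in each cell kind for control and *Eed-cKO* embryos (color gives log10 of the mean plus 1). *Bmp4* is high in vascular leptomeningeal-like cells (243 in control), *Acvrl1* in endothelial-like cells (349) and *Acvr2a* in neuron-like cells (156).

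A list of 84 other genes of the pathway was set beside the members, of which 80 were in the table. In All-Hypo 57 were tested, 23 were higher and 6 lower, where 15.3% and 12.4% of all genes were, with a median log2 fold change of 0.14. Of 10 target genes tested 7 rose, among them the homeobox gene *Msx1*, from 0.389 to 4.01 CPM in control to 6.31 to 56.2 in *Eed-cKO* (3.62 ± 0.43, adjusted p = 2.57e-06), *Gata2* (3.24 ± 0.29), the matricellular *Ctgf* (2.28 ± 0.30) and the Notch and BMP target *Hes1* (2.26 ± 0.20). Of 8 genes tested that store or release latent TGF-beta 6 rose, including *Thbs1* (1.55) and *Ltbp3* (1.19). Whether related genes such as *Msx1* reached the expression filter only through *Eed-cKO* was not checked. The counts of related genes tested may therefore not be independent of their change. The antagonist *Nbl1* rose by 1.85 ± 0.19, while *Tmeff2* (-0.72 ± 0.09), *Fstl5* (-0.69 ± 0.10), *Crim1* (-0.54 ± 0.11) and *Cited2* (-0.49 ± 0.10) fell. In neuron-like cells 13 of 52 related genes were higher and 5 lower, where 8.06% and 7.41% of all genes were. In astrocyte-like cells 15 of 60 were higher and 4 lower, where 6.71% and 4.62% of all genes were. *Msx1* and *Gata2* were called higher in both, by 3.92 and 3.13 in neuron-like and by 2.48 and 4.38 in astrocyte-like cells, and *Rgma*, a BMP co-receptor, lower in both (-0.60 and -0.78).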

How the data were processed

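Single cells of E18.5 hypothalamus were captured with the Bio-Rad ddSEQ droplet system after papain digestion and sequenced as 3′ UMI libraries. The deposited values are UMI counts per gene and cell that the authors made with the SureCell pipeline (STAR 2.5.2b, SAMtools 1.3, mm10), after removing cells with few UMIs or genes. No normalization had been applied, and whether the counting used strand is not given in the sources used here.

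Cells were normalised to 10000 UMIs, and the 2000 most variable genes were clustered with scanpy 1.11.5 (30 components, 15 neighbours, Leiden resolution 1, leidenalg 0.10.2), giving 28 clusters. A cluster was named from at least 3 markers that were at least 2-fold higher and present in at least 10% of its cells. Neuron markers were compared with clusters that held 5 or more markers of another kind, which departs from the design written first, since most cells were neurons. Clusters whose leading genes held more markers of another kind were left unnamed. Clusters of 1055 and 563 cells with 8 neuron markers were left unnamed for low depth (median UMIs at 0.304 and 0.217 of the library median). Names are therefore rebuilt ones. Doublets were not removed in the analysis as reported, and removing 6% of cells per library by Scrublet score was an alternative.

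UMI counts were summed per embryo (6 control, 9 *Eed-cKO*) and compared with edgeR 4.0.16 in R 4.3.3 (TMM, quasi-likelihood test, two-sided, Benjamini-Hochberg over all genes tested, threshold 0.05). Nothing in the labels says more of how independent the embryos are than the litter in the library name. Genes needed 15 UMIs in total, 2 in at least 1 embryo and, for All-Hypo and neuron-like cells, a median log-CPM of 1.5. A cell kind needed 10 cells per embryo and 3 embryos per genotype. Fold changes are log2, SE is the log2 fold change over the square root of F, and CPM are TMM-normalised unless plain CPM are named. Lower bounds used a floor of 3 UMIs, which covers counting error only. The difference of the genotype effect between kinds was an interaction with the embryo as block. The method was tested on simulated data. DESeq2 1.42.0 and limma 3.58.1 (voom with TREAT at 0.18) were alternatives, with other filters, normalizations, cell sets, sex as a covariate, sums per litter and embryos or litters left out.

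The members, gene lists and markers were chosen with earlier results of these data known. Values are given for members called in All-Hypo or neuron-like cells, up to 14 by size of change, for the *Id* genes, for members called in a cell kind, and for the 5 largest rises and falls of the related genes, of which 1 is not reported here. *Smad7*, *Acvr2a*, *Bmpr1a*, other members that were not called or not tested, and *Thbs1*, *Ltbp3* and *Rgma* were named after their values were seen.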

Additional observations from a re-analysis of the deposited data

Results flagged for a closer look

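For single embryos that stood far from the rest of their genotype, 10 of 82 groups of embryos tested by Dixon's criterion were marked, where chance marks about 1 in 20. In All-Hypo these were *Bmp1* in control replicate 1 (40.6 CPM, next 29.7) and in *Eed-cKO* replicate 9 (25.3, next 38.5), *Id4* in control replicate 4 (155, next 179), *Smad3* in *Eed-cKO* replicate 3 (18.9, next 12.4) and *Tgfbr3* in *Eed-cKO* replicate 7 (9.02, next 4.28). In neuron-like cells they were *Id2* in *Eed-cKO* replicate 7 (52.6 CPM, next 87.3) and *Id3* in *Eed-cKO* replicate 6 (9.93, next 4.99). In astrocyte-like cells they were *Gdf15* in *Eed-cKO* replicate 3 (83.0 CPM, next 44.0) and *Tgfbr2* in control replicate 2 (4.86, a single UMI, all other control embryos being at 0). In cycling progenitor-like cells *Gdf10* in control replicate 5 stood at 17.7 CPM, with the other control embryos at 0.

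The genotype effect differed between astrocyte-like and neuron-like cells of the same embryos for 5 members. On the log2 scale, astrocyte-like minus neuron-like, the difference was 1.81 for *Tgfb2*, 1.45 for *Gdf10*, 1.16 for *Id2*, -2.38 for *Bmpr1b* and -2.51 for *Inhbb*, and these calls held in all 16 alternatives run for this comparison (library size alone, and each of 15 embryos left out). None of these alternatives left out a litter or the neuron-like clusters mostly of 1 genotype.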

How the results depend on the processing

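No paired analysis was possible because the labels pair no embryos across genotypes and no litter held both. In All-Hypo, where 18 of 33 members were called, 28 of 50 were with a total of 15 UMIs as the only filter and 28 of 52 with no filter (23 higher and 5 lower each). In neuron-like cells, where 8 of 27 were called, 5 of 27 were by limma-voom with TREAT and 14 of 33 with libraries as samples, and the latter called 28 related genes against 18. Libraries of 1 embryo are pieces of 1 hypothalamus and not independent replicates. Among these alternatives, shares over all genes were computed for the total of 15 UMIs alone. Counts under the others show only how the calls depend on the setting. DESeq2 called 1 member in vascular leptomeningeal-like and 1 in cycling progenitor-like cells. With 1 embryo or litter left out, the counts ranged from 14 to 21 in All-Hypo, from 5 to 9 in neuron-like, from 6 to 11 in astrocyte-like, from 0 to 4 in vascular leptomeningeal-like and from 2 to 5 in cycling progenitor-like cells. *Id2* in All-Hypo, near 0, changed sign with library size alone (0.046), without clusters of 1 genotype or no name (0.009), and over embryos or litters left out (-0.103 to 0.055). *Id4* in neuron-like cells changed sign without clusters mostly of 1 genotype (-0.104). The cause was not tested for any of these. Library size alone moved the median of all genes to 0.053 in All-Hypo, with 17 members higher and 2 lower. Members with few UMIs, such as *Bmp4* in control, limit the precision of their folds.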

Other observations

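A cluster of 225 cells, all from *Eed-cKO* embryos, held neuron markers but was left unnamed and out of the neuron-like set because markers of another kind led it. In plain CPM (not TMM-normalised), it had *Id3* at 182, *Id1* at 55.1 and *Bmp7* at 35.4. It held 75.5%, 41.3% and 31.6% of their *Eed-cKO* UMIs over the neuron-like clusters and the 2 clusters left unnamed for their leading genes. With these 2 clusters added, but not those of low depth (an alternative chosen after seeing the data), 6 members were higher and 2 lower in neuron-like cells. *Tgfbr1* was no longer called (adjusted p = 0.0957), and the log2 fold changes were 3.06 for *Id3*, 2.02 for *Id1* and 1.89 for *Bmp7*.

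Low-count members differed between kinds in other ways. In plain CPM (not TMM-normalised), *Smad6*, an inhibitory Smad, was at 84.2 in control and 86.7 in *Eed-cKO* endothelial-like cells, and *Tgfbr2*, the type II TGF-beta receptor, was at 381 and 376. Control microglia or macrophage-like cells had *Gdf15* at 152 ± 154 (SD).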
